A study of Mus musculus with 6 samples.

Results

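The otic patterning transcription factors described here were Pax2, Gata3, Eya1, Dlx5, Lmx1a, Hmx2, Hmx3 and Tbx1. These 8 genes were taken by symbol, and all 8 matched an Ensembl gene ID among the 55769 features of each library. Their transcripts were measured by RNA-seq of total RNA from mouse cochleae, the hearing part of the inner ear, on postnatal day 3. One group of 3 libraries came from Plscr5-/- mice, in which a member of the phospholipid scramblase family of membrane proteins is disrupted, and the other group of 3 came from wild-type mice. The labels give no strain, sex, altered exon or number of pooled animals, and their extraction text mentions a Pou4f3(Δ/+) line that the genotype field of no library lists. The design asks how gene expression in the newborn cochlea changes when Plscr5 is lost.

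The inner ear forms from the otic vesicle, a hollow ball of ectoderm that transcription factors divide into a dorsal part, from which the balance organs grow, and a ventral part, from which the cochlear duct grows out. Pax2, Gata3 and Eya1 act in the territory that gives rise to the cochlea and its sensory cells, whereas Dlx5, Hmx2 and Hmx3 are known for the dorsal, vestibular part. Lmx1a marks the non-sensory epithelium around the sensory patches, and Tbx1 acts in both the otic epithelium and the mesenchyme around it.

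The promoters of 6 of these genes were found in a RefSeq-derived table (build GRCm38.p6), as 10 windows of 300 bases at annotated start sites. Of the 10 windows, 9 lay above the median GC content of all 32851 windows of the table (52.7%) and 8 above the median of 7 CpG dinucleotides, which is common at genes of developmental regulators. Pax2 gave 3 of the windows and Tbx1 and Hmx2 gave 2 each, so counts of windows are not counts of genes. Each of the 6 genes had a window above the CpG median. The last bases of Pax2 windows 1 and 2 and of both Tbx1 windows matched no GENCODE transcript of the gene. The 250 bases before the start are shown for 3 genes that span the range of levels described next, with each CpG in capitals: Gata3, of high level (chr2:9878601-9878850, minus strand), Lmx1a, of middle level (chr1:167689308-167689557, plus strand), and Hmx3, of low level (chr7:131542713-131542962, plus strand).
Gata3: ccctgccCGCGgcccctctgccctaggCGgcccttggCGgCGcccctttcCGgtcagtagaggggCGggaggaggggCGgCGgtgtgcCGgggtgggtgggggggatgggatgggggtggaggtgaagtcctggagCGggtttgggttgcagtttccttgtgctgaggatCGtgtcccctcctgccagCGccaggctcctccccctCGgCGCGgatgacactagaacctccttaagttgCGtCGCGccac
Lmx1a: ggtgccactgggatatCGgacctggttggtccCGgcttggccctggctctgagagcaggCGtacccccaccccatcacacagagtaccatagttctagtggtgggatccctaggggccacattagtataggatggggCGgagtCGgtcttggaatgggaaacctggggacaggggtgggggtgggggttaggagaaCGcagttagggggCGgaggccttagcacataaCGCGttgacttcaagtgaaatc
Hmx3: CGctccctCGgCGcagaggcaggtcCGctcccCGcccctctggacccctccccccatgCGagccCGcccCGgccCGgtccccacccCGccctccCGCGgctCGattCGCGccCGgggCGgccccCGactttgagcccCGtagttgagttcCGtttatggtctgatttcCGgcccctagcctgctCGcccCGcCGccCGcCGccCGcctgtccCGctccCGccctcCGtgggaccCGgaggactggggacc
These stretches held 19, 9 and 31 CpG dinucleotides. The 300-base window of Hmx3 had a GC content of 78.0%, and 98.2% of all windows had this content or less, although Hmx3 was among the factors of lowest level. Over all 10 windows the E-box CANNTG, searched on both strands, occurred in 6, against 72.3% of all windows of the table. The GATA motif AGATAA, on either strand, occurred in 0 of the 10 windows and in 11.2% of all windows.

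Levels were compared in TPM, a share of all transcripts of the library that is scaled by transcript length and so allows genes to be set side by side. Sequencing depth is unknown, because TPM keeps no read totals. The 8 factors spanned more than 2 orders of magnitude, from Eya1 at a mean of 154 TPM over the 6 libraries to Hmx2 at 0.54 TPM. Eya1 and Gata3 together made up between 85.0% and 87.8% of the summed TPM of the 8 genes in each library. The order below Eya1 was Gata3 (140 TPM), Tbx1 (27.8 TPM), Lmx1a (11.2 TPM), Pax2 (2.39 TPM), Dlx5 (2.28 TPM), Hmx3 (1.11 TPM) and Hmx2. The value ranges of Gata3 and Tbx1, of Tbx1 and Lmx1a, of Lmx1a and Pax2, and of Dlx5 and Hmx3 did not overlap over the 6 libraries. Neighbours whose ranges did overlap were Eya1 and Gata3, with Eya1 higher in 5 of 6 libraries, Pax2 and Dlx5, with Pax2 higher in 3 of 6, and Hmx3 and Hmx2, with Hmx3 higher in 5 of 6.

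**Figure D1:**
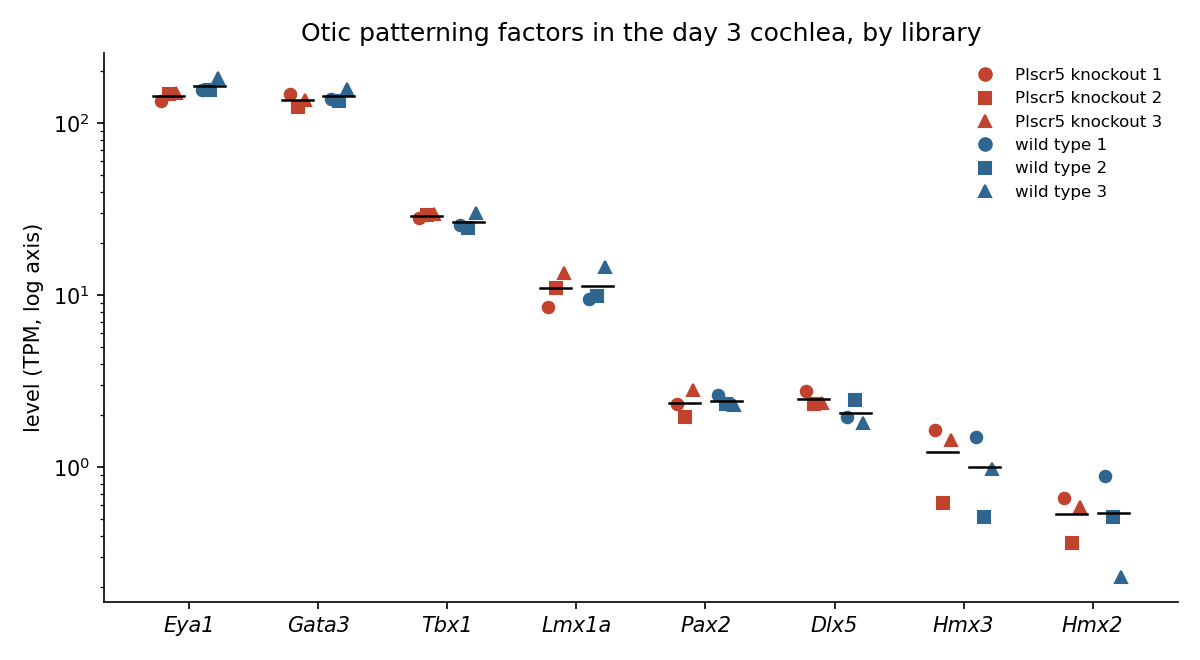
Level of each otic patterning factor in TPM on a log axis, with 1 point per library (red, Plscr5 knockout; blue, wild type) and a bar at each group mean of 3. Eya1 and Gata3 lie above 120 TPM in all 6 libraries, and Hmx2 lies below 1 TPM in all 6.

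In these libraries Plscr5 itself measured 4.30, 3.69 and 5.01 TPM across knockout libraries and 14.53, 12.42 and 9.27 TPM across wild-type libraries, with no overlap. Its log2 fold change, in log2(TPM + 1) and signed as knockout minus wild type, was -1.28 (SE 0.18), with a limma p adjusted over 17097 features of 0.29, so the gene named in the genotype did not pass the threshold of 0.05. Nothing in the labels says that the libraries are separate animals, so p-values measure the spread between these libraries, which may be technical. Wild type replicate 3 stood apart from the other 5 libraries: summed over 12 neuronal markers it had 207 TPM, against 524 to 830 TPM in the others, and over 10 Schwann cell markers 552 TPM, against 1431 to 2367 TPM. In bulk tissue, fewer cells of a type and less RNA per cell cannot be told apart. Cochlear supporting cell markers such as Tectb, a tectorial membrane protein, were abundant at 3587 to 4754 TPM. Of 8 markers of vestibular epithelium and otoconia, Otop1 and Nox3 reached at most 0.18 and 0.79 TPM, whereas Oc90, an otoconial protein, stood at 2087 to 2869 TPM, Otol1 at 21.91 to 27.25 TPM and Noxo1 at 32.05 to 55.01 TPM.

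None of the 7 factors that could be tested changed with Plscr5 genotype after adjustment (limma, Benjamini-Hochberg), with adjusted p from 0.989 to 0.998, and 0 had an unadjusted p under 0.05. Over all features tested, 0.0117% passed after adjustment and 4% had an unadjusted p under 0.05. Of the 7, 3 had a positive and 4 a negative log2 fold change; their median was -0.03, beside a median of -0.01 and 53.4% negative over all features. Without wild type replicate 3, 5 of the 7 were positive and the median was 0.12. The fold changes ran from -0.19 (Eya1) to 0.19 (Dlx5). Hmx2 did not reach the filter of 1 TPM in at least 3 libraries and was not among the 7.

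**Figure D2:**
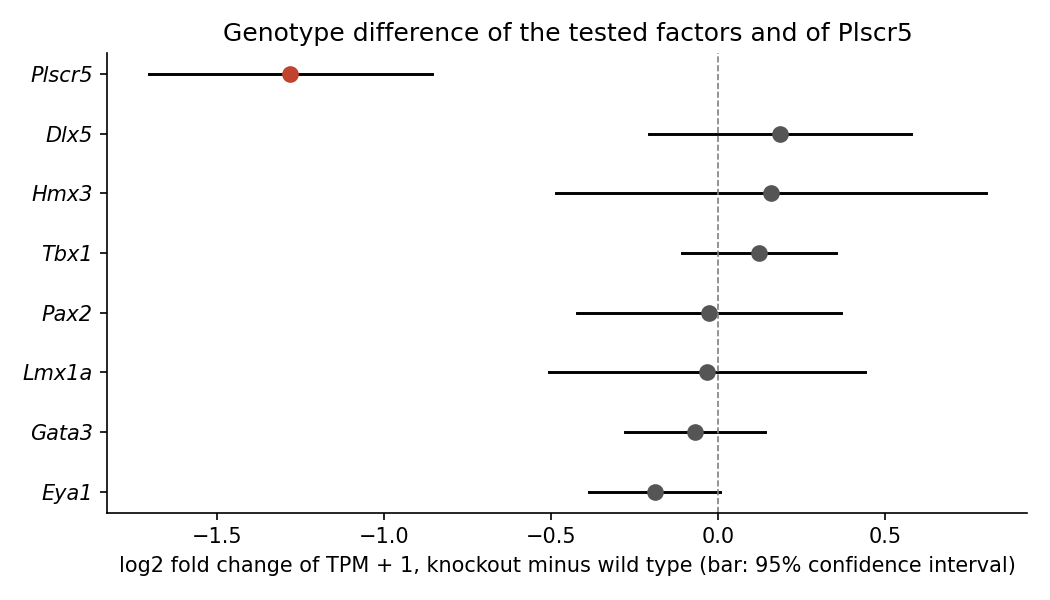
Log2 fold change of TPM + 1 (knockout minus wild type, dot) with its 95% confidence interval from limma (bar) for the 7 tested factors and for Plscr5. All 7 intervals include 0, whereas that of Plscr5 runs from -1.70 to -0.86.

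Eya1, a transcriptional co-activator that also has phosphatase activity, was the 1 factor of the 7 whose groups did not overlap. It measured 134.99, 148.08 and 149.11 TPM across knockout libraries and 156.0, 155.12 and 183.22 TPM across wild-type libraries. All 3 knockout libraries lay below all 3 wild-type libraries, with wild type replicate 3 the highest. The group means were 144 ± 8 and 165 ± 16 TPM (SD, n = 3 each), so the knockout stood at 87.4% of the wild-type level. The log2 fold change was -0.19 (SE 0.08), its 95% confidence interval ran from -0.39 to 0.01, and the limma p was 0.0562 before and 0.989 after adjustment. An exact two-sided permutation test over its libraries gave p = 0.1, which is as low as a design of 3 against 3 allows. Over all features tested, the groups did not overlap in either direction at 9.33%, and at 4.74% they did not overlap and were lower in the knockout. Without wild type replicate 3 the log2 fold change of Eya1 was -0.11, and with the nerve score (the mean of centred neuronal and Schwann cell genes) as a covariate it was -0.07. Among supporting cell markers, 11 of 12 had a negative log2 fold change, beside 53.4% of all features tested. The exception was Fabp7 at 0.16. Of the 12 markers, 0 passed the threshold, and their median was -0.17. Their summed TPM, most of it Tectb, lay between 6365 and 6443 across knockout libraries and between 6857 and 7772 across wild-type libraries. No defining marker of that list was at 0, and the part of these cells in the Eya1 values was not tested. A negative log2 fold change was also more frequent than a positive one in other marker lists. It was found at 8 of 12 hair cell markers, 7 of 9 tested roof and marginal cell markers and 4 of 5 tested cartilage markers. Neuronal markers had 1 of 12 negative and Schwann cell markers 1 of 10.

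Eya proteins work with homeodomain proteins of the sine oculis family (Six2, Six4 and Six5 here), which bind DNA, and with Dach co-factors. This network was set apart after its values were seen. Of its 9 genes compared here, Eya1 included, 8 had a negative log2 fold change and 0 passed the threshold, and the median was -0.19. The count was 7 of 9 without wild type replicate 3, with a median of -0.066, and 6 of 9 with the nerve score covariate, with a median of -0.034. The groups did not overlap at 3 of the 9, all lower in the knockout, which were Eya1, Six2 and Six4. Over all features tested, 4.74% did so in this direction and 53.4% had a negative log2 fold change. Six4 measured 9.88, 9.23 and 9.15 TPM across knockout libraries and 12.65, 10.61 and 10.68 TPM across wild-type libraries, with a log2 fold change of -0.24 (SE 0.12, limma adjusted p of 0.989). Six2 was nearly flat in the knockout, at 62.70, 62.41 and 62.53 TPM, and was 64.94, 65.36 and 75.11 TPM across wild-type libraries. Eya4, whose loss causes deafness, was also close to flat in the knockout at 57.62, 58.23 and 57.76 TPM, and in the wild type replicate 2, at 57.66 TPM, fell within that range while replicates 1 and 3 stood at 71.76 and 69.83 TPM. Six5 was the exception in sign, with a log2 fold change of 0.02.

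**Figure D3:**
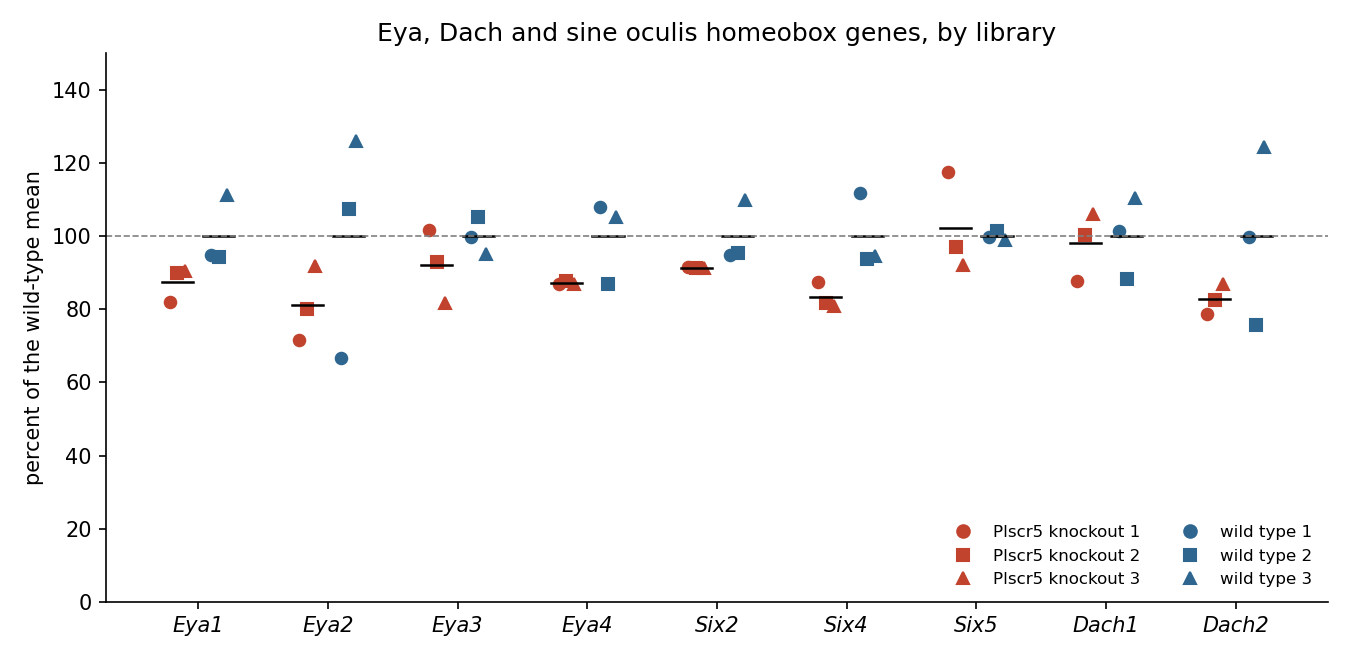
Each library's TPM as a percent of the wild-type mean of the same gene, for 4 Eya genes, 3 sine oculis homeobox genes and 2 Dach genes (red, Plscr5 knockout; blue, wild type; bars, group means of 3). The knockout mean lies below the wild-type mean at every gene but Six5, and the groups separate at Eya1, Six2 and Six4.

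Gata3, a zinc finger factor of the cochlear duct and of auditory neurons whose loss of 1 copy causes deafness in people, did not separate by genotype. It measured 148.42, 124.82 and 136.24 TPM across knockout libraries and 137.47, 134.80 and 157.15 TPM across wild-type libraries. The lowest value was in knockout replicate 2 and the highest in wild type replicate 3, the library low in neuronal and Schwann cell transcripts. The log2 fold change was -0.07 (95% confidence interval -0.28 to 0.14), which allows from 0.825 to 1.10 times the wild-type level of TPM + 1. It was 0.00028 without wild type replicate 3. Its paralog Gata2 was of similar abundance, at 110 ± 9 TPM across knockout libraries and 112 ± 9 TPM across wild-type libraries, with a log2 fold change of -0.02. An annotated gene on the same strand, 9230102O04Rik, shares exon sequence with Gata3 and was listed at 5.43 to 15.75 TPM. How reads were divided between them was not tested.

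Tbx1, a T-box factor whose human counterpart lies in the 22q11 deletion region, varied little in the knockout, at 28.04, 29.44 and 29.56 TPM. The wild type was wider, at 25.53, 24.44 and 30.01 TPM, so that it enclosed the knockout values. The log2 fold change was 0.12 (SE 0.10), and 0.21 without wild type replicate 3. Among its paralogs, Tbx18, a gene of the periotic mesenchyme, was the most abundant at 104 TPM over the 6 libraries, followed by Tbx2 at 56.0 TPM. Tbx3 averaged 5.92 ± 0.73 TPM across knockout libraries and 4.94 ± 0.58 TPM across wild-type libraries, with a log2 fold change of 0.22 (limma adjusted p of 0.989).

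Lmx1a, a LIM homeodomain factor, varied more between libraries than any other factor above 2 TPM, and this variation did not follow genotype. It measured 8.51, 11.06 and 13.50 TPM across knockout libraries and 9.46, 9.95 and 14.53 TPM across wild-type libraries. The libraries numbered 3 were highest in both groups, and the group means of 11.02 ± 2.50 and 11.31 ± 2.80 TPM were nearly equal. The coefficient of variation over the 6 libraries was 21.3% for Lmx1a, against 8.11% for Gata3, 8.37% for Tbx1 and 10.4% for Eya1. The log2 fold change of -0.03 (95% confidence interval -0.51 to 0.44) was 0.15 without wild type replicate 3 and 0.13 without knockout replicate 1.

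The protein-coding gene most like Lmx1a over the 6 libraries, among 14230 compared, was Tekt1, which encodes a tektin of motile cilia and flagella. Tekt1 is in the list of vestibular epithelium and otoconia markers. Tekt1 measured 9.23, 12.36 and 15.12 TPM across knockout libraries and 10.39, 10.87 and 15.84 TPM across wild-type libraries, which is the same order of libraries as for Lmx1a. Pearson's r was 0.998 on the log2(TPM + 1) scale and 0.999 without the 2 libraries farthest from the Lmx1a median. An r above 0.95 with Lmx1a was found for 103 genes, and as Tekt1 was picked as the highest of all compared, its r has no test. A list of 10 markers covered the roof of the cochlear duct and stria vascularis marginal cells. Among them Otx2, Vmo1, Oc90 and Kcnq1 were also highest in the libraries numbered 3. Oc90 is in the vestibular epithelium and otoconia list as well. Kcnq1 measured 5.28, 4.35 and 6.11 TPM across knockout libraries and 4.66, 5.21 and 5.99 TPM across wild-type libraries. The marginal cell genes Kcne1 and Esrrb, with low means of 1.25 and 1.39 TPM, did not follow this order. Kcne1, a potassium channel subunit, measured 2.37, 0.58 and 0.81 TPM across knockout libraries and 1.59, 1.49 and 0.68 TPM across wild-type libraries, and Esrrb likewise was highest in knockout replicate 1, at 2.73 TPM. Otx2, a homeobox gene of the duct's roof named after its values were seen, measured 14.36, 19.96 and 24.47 TPM across knockout libraries and 17.24, 16.03 and 27.95 TPM across wild-type libraries. The summed TPM of the 10 genes, most of it Oc90, ran from 2591 to 3482 in the knockout and from 2607 to 3542 in the wild type. It was highest in the libraries numbered 3 of each group. At 1 of its 10 genes, Bsnd, no library exceeded 0.28 TPM. The part of these cells in the Lmx1a values was not tested.

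**Figure D4:**
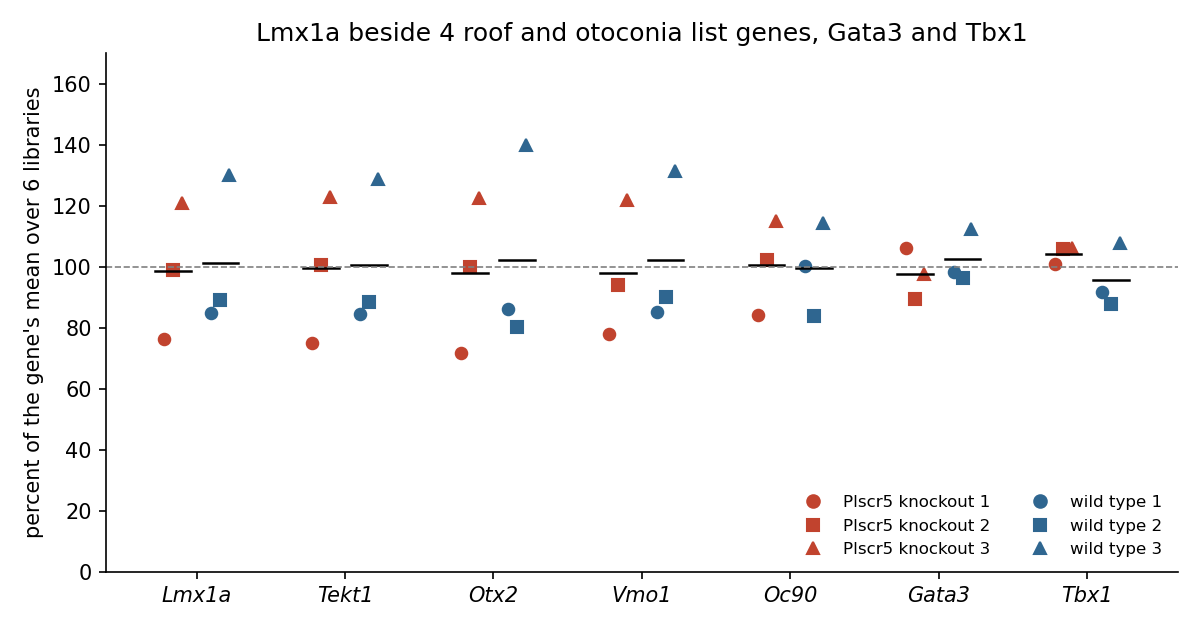
Each library's TPM as a percent of the same gene's mean over 6 libraries (red for Plscr5 knockout, blue for wild type, bars at group means of 3). Shown are Lmx1a, its closest match Tekt1, Otx2, Vmo1 and Oc90 from the roof and marginal cell list, and Gata3 and Tbx1. Tekt1 is in the list of vestibular epithelium and otoconia markers, and Oc90 is in both lists. The libraries numbered 3 (triangles) are the 2 highest for Lmx1a, Tekt1, Otx2, Vmo1 and Oc90, while the group means stay near 100.

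Pax2, a paired-box factor needed for outgrowth of the cochlear duct, was low at this age and did not separate by genotype. It measured 2.33, 1.95 and 2.82 TPM across knockout libraries and 2.62, 2.32 and 2.30 TPM across wild-type libraries. The knockout values enclosed those of the wild type, and the log2 fold change was -0.03 (95% confidence interval -0.42 to 0.37). Pax8, which acts beside Pax2 in the early otic placode, was listed at 0 in all 6 libraries, and Pax5 reached at most 0.03 TPM.

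Dlx5, a homeobox factor of the dorsal otic vesicle, had the most positive log2 fold change of the 7. It measured 2.78, 2.34 and 2.35 TPM across knockout libraries and 1.96, 2.47 and 1.80 TPM across wild-type libraries. Wild type replicate 2 lay above 2 of the knockout libraries, so the groups overlapped. The log2 fold change was 0.19 (SE 0.17, limma adjusted p = 0.989), and 0.07 with the nerve score covariate. Dlx6, its neighbour in the genome, was below the filter at 0 to 0.77 TPM. Dlx3 stood at 3.88 TPM over the 6 libraries with a log2 fold change of -0.04.

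Hmx3 and Hmx2 are related homeobox genes that lie side by side on chromosome 7 and act together in the vestibular part of the ear. The start of Hmx3 lies 5794 and 11330 bases from the 2 Hmx2 start sites of the table. Hmx3 measured 1.64, 0.62 and 1.43 TPM across knockout libraries and 1.5, 0.51 and 0.98 TPM across wild-type libraries. It passed the filter with the smallest number of libraries allowed, 2 of the knockout and 1 of the wild type. Replicate 2 was the lowest of each group. The log2 fold change was 0.16 (95% confidence interval -0.48 to 0.80), an interval that allows from 0.715 to 1.74 times the wild-type level of TPM + 1, and without wild type replicate 2 it was -0.03.

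Hmx2 measured 0.66, 0.36 and 0.59 TPM across knockout libraries and 0.89, 0.51 and 0.23 TPM across wild-type libraries. The wild-type values enclosed those of the knockout. With no filter on low values its log2 fold change was 0.01 (95% confidence interval -0.47 to 0.49). The third gene of the family, Hmx1, was listed at 0 in all 6 libraries. The coefficients of variation of Hmx2 and Hmx3, 42.9% and 43.1%, were the highest of the 8 factors.

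The highest library was wild type replicate 3 for 4 of the 8 factors, and it was the lowest for 2 others, Dlx5 and Hmx2. The summed TPM of the 8 factors was 390 in that library and between 319 and 336 in the other 5. Across the 6 libraries the gene most like each of the other factors was Rere for Gata3 (r = 0.9995), Hsd17b7 for Eya1 (r = 0.996), Cyp27a1 for Tbx1 (r = 0.997), Tgfbr3 for Dlx5 (r = 0.996), Ssbp2 for Pax2 (r = 0.982), Card9 for Hmx3 (r = 0.986) and Ncbp1 for Hmx2 (r = 0.998). Each was picked as the highest of 14230 genes over 6 libraries and has no test. An r above 0.95 was found for 3 genes with Pax2 and for 91 with Dlx5.

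Of 18 paralogs of these factors, 10 passed the filter, 4 had a positive and 6 a negative log2 fold change, and 0 passed the threshold (median -0.02). Eya2, a further Eya co-activator, averaged 19.7 ± 2.5 TPM across knockout libraries and 24.2 ± 7.3 TPM across wild-type libraries, and Eya3 averaged 17.6 ± 1.9 and 19.1 ± 1.0 TPM. Of 41 other transcription factors of the otic placode and vesicle, 31 passed the filter, 11 had a positive and 20 a negative log2 fold change, and 0 passed the threshold (median -0.03). The groups did not overlap at 2 of the 31, both lower in the knockout (either direction, 9.33% of all features), which were the Six2 and Six4 described above. The most abundant was Nr2f1, a nuclear receptor, at 281 ± 17 TPM across knockout libraries and 305 ± 10 TPM across wild-type libraries, with a log2 fold change of -0.12. Id1, Id2 and Id3, which hold back basic helix-loop-helix factors, had log2 fold changes of 0.0001, 0.04 and 0.08. Isl1, a LIM homeodomain factor, had one of -0.10 and Sox10, of otic epithelium and glia, one of -0.01. Foxi3, Gbx2 and Neurog1, which act in the placode and early vesicle, were listed at 0 in all 6 libraries.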

How the data were processed

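Per the values, the files the authors deposited hold TPM: 2 decimals and a sum of 999999 to 1000000 in each of 6 libraries. DESeq2 and the build mm8 are listed, without a role, in the submitters' processing notes. The aligner was not given in the sources used here, nor were quantifier and annotation. Symbols, biotypes and gene overlaps came from GENCODE M21 (GRCm38), and promoters from RefSeq (GRCm38.p6). The TPM files carry no coordinates.

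The 17097 features that reached 1 TPM in 3 or more libraries were transformed to log2(TPM + 1). Genotypes were compared by limma 3.58.1 (R 4.3.3) using an intensity trend, robust moderation and Benjamini-Hochberg adjustment over all features at a threshold of 0.05. Errors are SD over 3 libraries unless named otherwise. Alternatives covered pseudocount, filter, scaling, variance, replicate block, nerve score and each library left out.

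The 8 genes and all lists were chosen with earlier results of these data known. Named were all 8 genes, Plscr5, of the paralogs and of the other otic factors up to 6 with the highest mean and 3 with the smallest p, and the most correlated gene of each factor. Other Eya, Dach and sine oculis homeobox genes, Otx2, single marker genes and genes at or near 0 were named after their values were seen. Some genes that this rule names are not reported here.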

Additional observations from a re-analysis of the deposited data

How the results depend on the processing

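For the 7 tested factors, 107 of 115 checks kept the sign of the log2 fold change and 0 gained a call. Not all checks could turn a sign. The filter, variance and replicate block settings left each log2 fold change as it was, so their agreement was fixed in advance. All 8 reversals came with the nerve score covariate or with 1 library left out. Hmx3 entered only 13 checks, as it was below the filter in the others. With the nerve score covariate the sign turned for Gata3 (0.012), Lmx1a (0.28), Otx2 (0.37), Gata2 (0.092), Eya2 (0.015), Tbx18 (0.046), Isl1 (0.0026) and Dlx1 (-0.19). It turned for Id1 with quantile normalization (-0.013) and with haemoglobin and mitochondrial genes removed (-0.0022), and for Sox10 with median-of-ratios scaling (0.0044). When single libraries were left out, the ranges that crossed 0 were -0.13 to 0.00028 for Gata3, -0.18 to 0.15 for Lmx1a, -0.12 to 0.065 for Pax2, -0.028 to 0.37 for Hmx3, -0.21 to 0.19 for Otx2, -0.061 to 0.045 for Gata2, -0.079 to 0.025 for Tbx18, -0.10 to 0.051 for Sox10, -0.047 to 0.045 for Id1 and -0.044 to 0.13 for Id2. The median over the tested factors, -0.03, lay between -0.10 and 0.12 with 1 library left out and was 0.068 with the nerve score covariate. Over all features the limma count of lower features, 2, was 0 with no filter, 0 with no variance trend, 0 with the replicate block, 1 with at least 1 TPM in all 6 libraries, 1 with median-of-ratios scaling, 1 with haemoglobin and mitochondrial genes removed and 4 with the nerve score covariate, and 0 to 2 when single libraries were left out. The count of higher features, 0, was 1 with the nerve score covariate and 0 to 2 when single libraries were left out. The cause of these changes was not tested. The replicate numbers were not taken as pairs, since the labels state no pairing. Deviations of same-numbered libraries correlated at 0.19, -0.05 and 0.24, and whether the libraries were paired remains unknown. With the replicate block, none of the 7 factors was called (Eya1 limma adjusted p = 0.669). In all, 4 of 6 libraries correlated best with their own number. TPM gives no depth, so no counting error can be set beside the low values of Pax2, Dlx5, Hmx3 and Hmx2. The count over Eya, Dach and sine oculis homeobox genes was added after seeing the data.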

Other observations

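Among the paralogs, Dlx1 and Dlx2, distal-less homeobox genes, were lowest in wild type replicate 3, the library low in neuronal and Schwann cell transcripts. Dlx1 measured 6.98, 3.81 and 3.58 TPM across knockout libraries and 4.26, 4.16 and 0.62 TPM across wild-type libraries, with a log2 fold change of 0.67 and a limma adjusted p of 0.989. Without wild type replicate 3 it was 0.10, and with the nerve score covariate -0.19. Its genomic neighbour Dlx2 followed the same order at its extremes, highest in knockout replicate 1 at 2.24 TPM and lowest in wild type replicate 3 at 0.57 TPM. At both genes the genotypes overlapped. Dlx1 and Dlx2 were named as a pair after their values were seen.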
